A study of Homo sapiens with 34 samples.

Results

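The nuclear genes of the oxidative phosphorylation machinery were followed through the chromatin of DLD1 cells, a human colorectal adenocarcinoma line. They were taken by name from the RefSeq protein-coding genes of chromosomes 1 to 22 and X: symbols beginning with NDUFA, NDUFB, NDUFC, NDUFS, NDUFV, UQCR, ATP5 or COX followed by 4 to 8, and SDHA, SDHB, SDHC and SDHD. The rule took 96 of 19970 genes. They are 37 genes of complex I, 8 complex I assembly factors, 4 genes of complex II, 9 of complex III, 17 of complex IV, 19 of complex V and 2 readthrough genes, which join a member to the gene beside it. No measured value entered this rule, though it was chosen with earlier results of these data known. RefSeq lists the gene long called NDUFA4, and its relative NDUFA4L2, under symbols beginning with COXFA4, so the rule did not take them.

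The DLD1 (DNTCF) line carries a Tet-inducible transgene for a dominant negative TCF7L2, a DNA-binding partner of β-catenin in Wnt signaling. Induced cells were given 1 µg/mL doxycycline for 24 h, and uninduced cells were not treated. Both conditions therefore share the transgene, and any effect of doxycycline itself cannot be told apart from that of the transgene. RNA polymerase II (Pol II) and histone H3 acetylated at lysine 27 (H3K27ac) were mapped by ChIP-seq in 2 samples for each antibody and condition, at 40 to 55M reads per sample. A single list of enriched regions was deposited for each antibody and condition, so no value below has a replicate check, an error between samples or a test. The Wilson intervals given for shares count genes as if independent, although some genes share regions. They are not a test of members against all genes. The 24 RNA-seq samples were not analysed here.

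The Pol II lists held 50665 regions over 56.7 Mb in induced cells and 57247 regions over 70.9 Mb in uninduced cells. The H3K27ac lists held 79987 regions over 132.6 Mb in induced cells and 78005 regions over 136.6 Mb in uninduced cells. Pol II coverage was thus lower in the induced list in general, and members are set beside all genes throughout. Of 8 epithelial and colorectal markers, 7 (EPCAM, CDH1, KRT8, KRT18, CDX2, VIL1 and LGR5) lay under regions of both marks in every list. KRT20 had none but an H3K27ac region over 13.1% of the gene in uninduced cells. The markers of other cell types, VIM, COL1A1, PECAM1 and PTPRC, also lay under regions of both marks in every list. Their Pol II coverage was between 0.529% and 7.74% of the gene in induced cells and between 0.857% and 9.09% in uninduced cells. Their H3K27ac coverage was between 7.68% and 12.7% in induced cells and between 7.30% and 11.8% in uninduced cells. The presence of regions therefore did not set these markers apart from the epithelial ones. The product of the transgene is not measured by these lists.

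Oxidative phosphorylation takes place on the inner mitochondrial membrane. Complexes I and II pass electrons from NADH and succinate to ubiquinone, complex III passes them to cytochrome c and complex IV to oxygen; complexes I, III and IV pump protons, and complex V, the ATP synthase, uses the proton gradient to make ATP. A few subunits are encoded by mitochondrial DNA, and the rest, studied here, by nuclear genes, many of which have promoters with sites for the nuclear respiratory factor NRF1, ETS factors such as GABP, and YY1. Colorectal tumours commonly have active Wnt signaling, often through loss of APC. Pol II marks transcription, with a peak at the start of an active gene and often another beyond its 3′ end, and H3K27ac marks active promoters and enhancers.

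Promoters are shown first, since regions of both marks at the starts were the feature most members shared. The sequences are RefSeq GRCh38.p14, 250 bases before to 50 bases after the annotated start, written 5′ to 3′ in the direction of the gene. Capitals mark exact matches, on either strand, to the ETS letters CCGGAAG, the TCF letters CTTTGAT and CTTTGTT, or the 10-letter motifs of NRF1 (capitals in ATP5F1C, the first capitals in SDHD) and YY1 (capitals in NDUFA6, the last capitals in SDHB). ATP5MK and COX6A1 had the highest Pol II differences between conditions among members. SDHB and SDHD belong to a complex in which every member was lower in induced cells. NDUFA6 and NDUFA3 had the lowest Pol II differences in complex I, and ATP5F1C one of the lowest H3K27ac differences. Every promoter shown holds a capitalised match, so these examples do not represent members, of which 30 of 74 held the ETS, NRF1 or YY1 letters. SDHA and SDHC are not shown.
ATP5MK, chr10:103396426-103396725, minus strand: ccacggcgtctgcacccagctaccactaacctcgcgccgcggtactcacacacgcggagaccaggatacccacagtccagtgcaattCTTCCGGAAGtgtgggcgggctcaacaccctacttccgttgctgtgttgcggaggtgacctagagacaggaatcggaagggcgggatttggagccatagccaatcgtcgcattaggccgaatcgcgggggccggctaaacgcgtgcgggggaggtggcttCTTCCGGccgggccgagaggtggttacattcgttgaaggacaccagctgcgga
COX6A1, chr12:120437863-120438162, plus strand: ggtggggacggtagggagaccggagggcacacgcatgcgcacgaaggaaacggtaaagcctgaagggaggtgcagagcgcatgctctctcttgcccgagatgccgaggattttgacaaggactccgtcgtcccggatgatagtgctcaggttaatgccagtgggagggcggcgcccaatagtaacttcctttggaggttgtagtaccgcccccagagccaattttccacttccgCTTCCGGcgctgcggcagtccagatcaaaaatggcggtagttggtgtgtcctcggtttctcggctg
SDHB, chr1:17053983-17054282, minus strand: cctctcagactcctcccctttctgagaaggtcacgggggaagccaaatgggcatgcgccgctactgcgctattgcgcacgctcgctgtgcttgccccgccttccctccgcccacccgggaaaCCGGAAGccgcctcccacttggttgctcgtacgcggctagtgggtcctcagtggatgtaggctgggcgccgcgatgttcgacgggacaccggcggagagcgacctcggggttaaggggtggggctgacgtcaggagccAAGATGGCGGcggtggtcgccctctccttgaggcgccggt
SDHD, chr11:112086623-112086922, plus strand: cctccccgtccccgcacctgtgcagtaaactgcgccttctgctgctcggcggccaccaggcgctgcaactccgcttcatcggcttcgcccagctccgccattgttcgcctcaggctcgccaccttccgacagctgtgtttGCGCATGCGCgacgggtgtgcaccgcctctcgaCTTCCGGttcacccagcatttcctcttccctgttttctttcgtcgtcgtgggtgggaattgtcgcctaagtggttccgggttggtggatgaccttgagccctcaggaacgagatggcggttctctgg
NDUFA6, chr22:42090723-42091022, minus strand: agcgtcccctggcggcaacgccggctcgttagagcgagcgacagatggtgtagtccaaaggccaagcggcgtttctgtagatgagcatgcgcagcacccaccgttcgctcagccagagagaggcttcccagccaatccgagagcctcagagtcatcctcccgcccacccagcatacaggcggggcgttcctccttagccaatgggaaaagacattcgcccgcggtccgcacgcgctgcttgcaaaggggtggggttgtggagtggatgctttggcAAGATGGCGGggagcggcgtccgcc
ATP5F1C, chr10:7787927-7788226, plus strand: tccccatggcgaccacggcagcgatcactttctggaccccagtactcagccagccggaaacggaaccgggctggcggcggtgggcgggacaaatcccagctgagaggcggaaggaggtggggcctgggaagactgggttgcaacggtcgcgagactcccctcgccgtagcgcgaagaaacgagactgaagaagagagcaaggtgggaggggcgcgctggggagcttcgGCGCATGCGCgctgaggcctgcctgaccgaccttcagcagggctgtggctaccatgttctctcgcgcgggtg
NDUFA3, chr19:54102605-54102904, plus strand: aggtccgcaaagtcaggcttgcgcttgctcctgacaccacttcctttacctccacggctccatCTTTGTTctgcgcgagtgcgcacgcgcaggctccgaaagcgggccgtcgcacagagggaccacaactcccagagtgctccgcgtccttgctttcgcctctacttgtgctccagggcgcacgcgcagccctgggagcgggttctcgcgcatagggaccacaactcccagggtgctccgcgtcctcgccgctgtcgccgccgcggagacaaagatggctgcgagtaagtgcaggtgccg

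All 7 windows lay wholly under Pol II regions in both conditions. They also lay wholly under H3K27ac regions in both, except SDHB, at 100% in induced cells and 71.0% in uninduced cells. In ATP5MK one pair of ETS matches overlaps, because its letters read the same on both strands. Among 74 members with a promoter in the table at their outermost 5′ end, 21 (28.4%) held the ETS letters, against 14.6% of all 13792 such promoters. The NRF1 letters were in 5 (6.76%), those of ATP5F1C, NDUFA8, NDUFAF5, NDUFB4 and SDHD, against 1.84% of all. The YY1 letters were in 7 (9.46%), those of NDUFA6, NDUFA9, NDUFAF8, NDUFS4, NDUFS7, SDHB and UQCRC1, against 2.02% of all. At least one of these 3 was in 30 members (40.5%), against 17.4% of all. The SP letters GGGCGG, not capitalised above, were in 43 (58.1%), against 58.5% of all. Of the TCF letters, CTTTGAT was in 0 member promoters and in 1.99% of all, and CTTTGTT was in 2 (NDUFA3 and NDUFA5), or 2.70%, against 4.06% of all. Median GC content was 61.2% in members and 62.7% in all promoters. A match of letters is a description of the window, not a bound site.

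Nearly every member lay under both marks. Coverage, the percent of a gene's length under regions of a mark, was above 0 for both marks in 88 members in induced cells and in 88 in uninduced cells; 67.9% of all genes had both marks in induced cells and 69.2% in uninduced cells. For Pol II alone the share of all genes above 0 was 70.3% in induced and 71.9% in uninduced cells, and for H3K27ac 73.9% in induced and 74.2% in uninduced cells. Pol II without H3K27ac was found at COX6B2 in induced cells, and at COX6B2 and COX7A1 in uninduced cells. The 6 members with no region in any list were COX4I2, COX6A2, COX7B2, COX8C, ATP5MGL and UQCRHL. Members were short, with a median of 10198 bp (276 to 222698 bp) against 24190 bp for all genes, and a region of given width covers more of a short gene. Pol II covered the whole gene at 3 members in induced cells, beside 1.92% of all genes, and at 4 in uninduced cells, beside 2.46%; H3K27ac did so at 4 in each, beside 1.62% in induced and 1.63% in uninduced cells.

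Over the 90 members covered by Pol II in either list, median coverage was 8.51% in induced cells and 11.7% in uninduced cells, against 4.13% in induced and 5.22% in uninduced cells for all genes covered. Coverage was lower in the induced list at 59 members, higher at 28 and equal at 3. The lower share was 65.6% (Wilson 95% interval 55.3 to 74.6, counting error only), and over all genes 76.9% were lower. By gene length it was 38.9% beside 57.0% of all genes up to 5000 bp, 72.0% beside 74.7% up to 10000 bp, 60.0% beside 79.2% up to 20000 bp, 86.7% beside 77.9% up to 50000 bp, and 85.7% beside 81.2% in longer genes, so the members' share was below that of all genes in the 3 shorter classes and above it in the 2 longer ones, which hold 15 and 7 covered members. The median difference, induced minus uninduced, was -0.49 percentage points in members and -0.50 in all genes. For H3K27ac, the 88 members covered had medians of 15.96% in induced and 16.8% in uninduced cells, against 8.41% in induced and 8.58% in uninduced cells for all genes. Of these, 49 were lower in the induced list, 34 higher and 5 equal, a lower share of 55.7% (45.3 to 65.6) beside 55.2% of all genes.

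**Figure D1:**
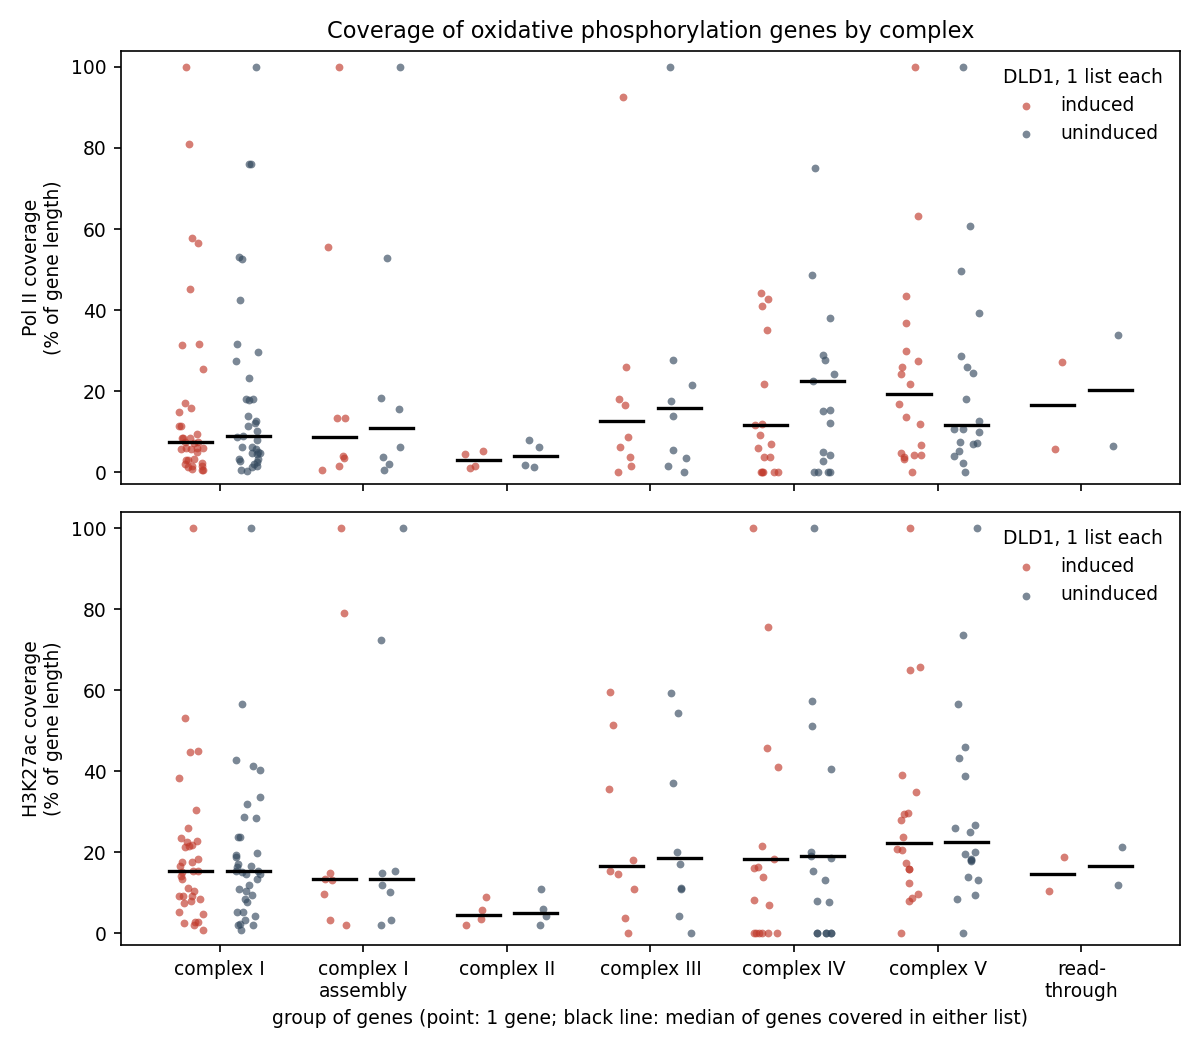
Percent of gene length covered by Pol II regions (top) and H3K27ac regions (bottom), with 1 point per gene, induced left of uninduced in each group; the black line is the median of genes covered in either list. Most genes lie under 30% in both conditions, with NDUFB10, NDUFAF3 and ATP5IF1 at 100% for Pol II in both lists.

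Few members stood far from the general shift. A gene was called where induced minus uninduced coverage was more than 25 points away from the median over all covered genes. For Pol II, 1 member (1.11%), COX7A1, was called lower, beside 0.975% of all genes, and 0 were called higher, beside 0.0623%. For H3K27ac, 0 were called lower, beside 0.0802%, and 0 higher, beside 0.107%. At 10 points, 8 members (8.89%) were lower for Pol II beside 6.74% of all genes, and 2 (2.22%) were higher beside 0.588%. The 8 were ATP5ME, COX7A1, COX7A2, NDUFA3, NDUFA6, NDUFB1, NDUFB7 and UQCR11, and the 2 were ATP5MK and COX6A1. For H3K27ac, 3 (3.41%) were lower at 10 points, ATP5F1C, ATP5MG and NDUFA12, beside 1.29%, and 2 (2.27%) were higher, ATP5F1E and COX6A1, beside 0.922%.

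**Figure D2:**
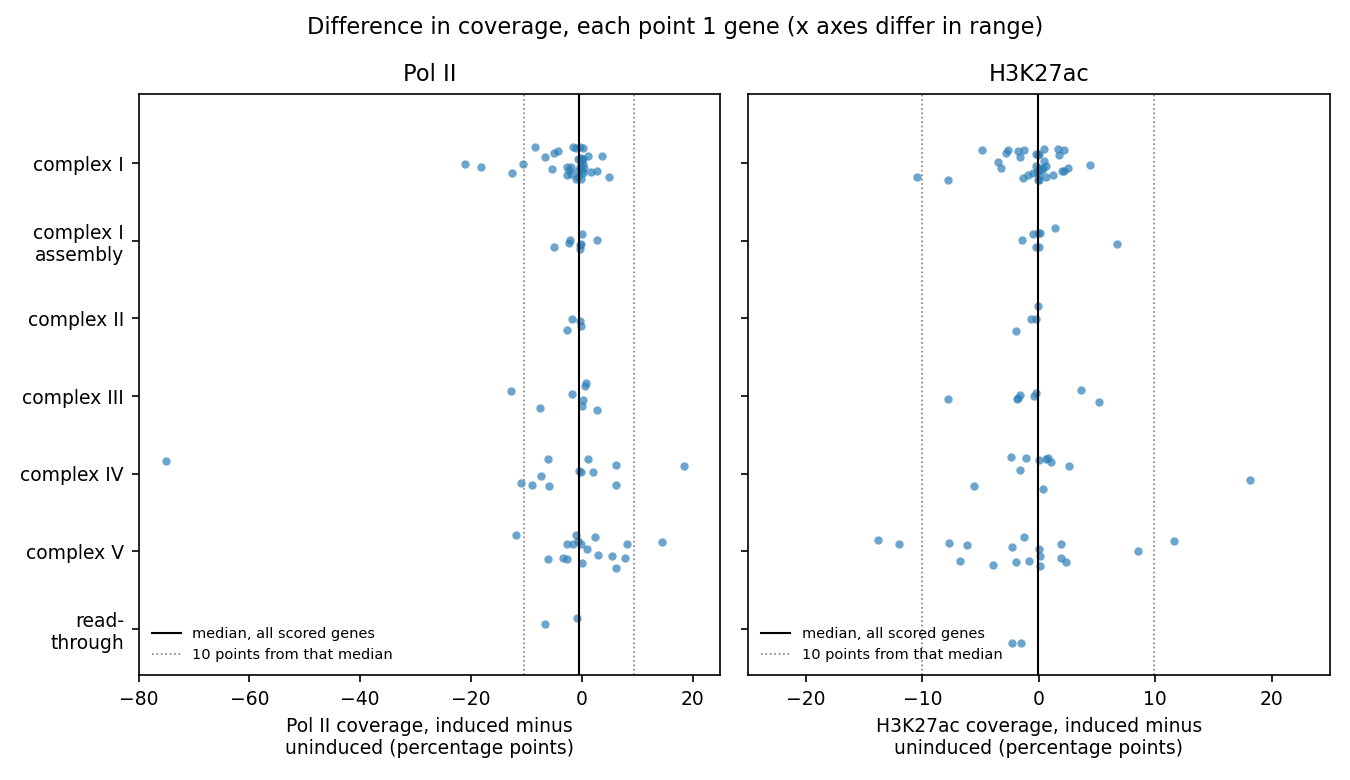
Difference in coverage, induced minus uninduced, in percentage points for Pol II (left) and H3K27ac (right), 1 point per gene covered in either list; the solid line is the median of all such genes and the dotted lines lie 10 points from it. COX7A1 stands alone at -75.1 for Pol II and COX6A1 has the highest difference at 18.5 for Pol II and 18.2 for H3K27ac.

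Complex I takes electrons from NADH. All 37 of its genes were covered by both marks in both conditions. Over all genes, 76.9% were lower for Pol II and 55.2% for H3K27ac, the shares beside which the counts by complex stand. Pol II coverage of complex I was lower in the induced list at 26 genes (70.3%), higher at 10 and equal at 1. Its medians were 7.41% in induced and 9.0% in uninduced cells. The lowest differences were at accessory subunits. NDUFA3 had 31.6% Pol II coverage in induced cells and 52.6% in uninduced cells, with 23.6% in induced and 28.5% in uninduced cells for H3K27ac. Its start region, found in both conditions, was 1617 bp long at a fold enrichment of 28.5 in induced cells and 2021 bp at 34.5 in uninduced cells. Weak regions in the gene body were 330 and 378 bp long in induced cells, at folds of 3.60 and 2.88, and 1246 and 377 bp in uninduced cells, at folds of 3.90 and 2.36. The NDUFA3 difference was -1.61 when each list was limited to its 20000 strongest regions. Fold enrichments are the authors' own values per list.

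NDUFA6 had 57.9% Pol II coverage in induced cells and 76.0% in uninduced cells, with 21.8% in induced and 19.8% in uninduced cells for H3K27ac. In uninduced cells a region of 3684 bp ran across its 3′ end, and in induced cells separate regions of 474 bp inside and 1945 bp beyond the gene lay there. NDUFB7 had 17.1% in induced and 29.6% in uninduced cells, and NDUFB1 7.41% in induced and 18.1% in uninduced cells. NDUFA2, another accessory subunit, had the highest Pol II difference of the complex, with 80.9% in induced and 76.1% in uninduced cells. It also had the highest for H3K27ac, with 44.6% in induced and 40.2% in uninduced cells. Among the 20000 strongest regions its Pol II difference was -16.5. NDUFA2 lies inside TMCO6, and its start is 199 bp from that of IK on the other strand. Its regions therefore cannot be given to NDUFA2 alone. The lowest H3K27ac difference was at NDUFA12, with 21.5% in induced and 31.9% in uninduced cells. There the intragenic region of 7599 bp in uninduced cells stood where induced cells had regions of 4120, 747 and 634 bp. The start regions were 1731 bp long in induced cells and 1690 bp in uninduced cells. Among the 20000 strongest regions the NDUFA12 H3K27ac difference was 0.23.

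Each member was also placed by its strongest summit within the gene or 1 kb of it. The strongest was the one with the highest −log10 q, q being the peak caller's adjusted p-value. Among these summits, the highest Pol II folds in induced cells were at NDUFAF3 (50.4), NDUFB2 (47.6) and NDUFA7 (44.0). In uninduced cells they were at NDUFA7 (46.8), NDUFAF3 (46.4) and ATP5MF (43.4), the last in a region that ATP5MF-PTCD1 shares. The NDUFAF3 summits lay in Pol II regions of 15913 bp in induced and 17034 bp in uninduced cells that also span DALRD3, so their folds cannot be given to NDUFAF3 alone. The strongest NDUFA7 regions, chr19:8307394-8309329 in induced and chr19:8307321-8309154 in uninduced cells, lay across its 3′ end. That end is at chr19:8308595, so part of each region lay outside the gene, and their folds cannot be given to NDUFA7 alone. An H3K27ac region of 4498 bp in induced and 4477 bp in uninduced cells also lay across that end. The region at the NDUFA7 start had a fold of 40.8 in induced and 32.8 in uninduced cells, and it cannot be given to NDUFA7 alone, since RPS28, a ribosomal protein gene, begins 121 bp away on the other strand. NDUFA7 had 14.7% Pol II coverage in induced and 23.2% in uninduced cells, but a difference of 4.14 among regions with a −log10 q of at least 5. The strongest summits were ranked by −log10 q, not by fold, among all genes with a summit. The median percentile of members was 61.0 in induced and 58.2 in uninduced cells for Pol II. For H3K27ac it was 62.5 in induced and 59.9 in uninduced cells. The percentile was lower in the induced list at 43 of 90 members for Pol II and at 44 of 88 for H3K27ac.

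The 8 complex I assembly factors, which help build the complex and are not part of it, had lower Pol II coverage in the induced list at 6, higher at 1 and equal at 1. NDUFAF4 had 13.3% in induced and 18.3% in uninduced cells, with a difference of -0.26 among the 20000 strongest regions. NDUFAF1 had 13.2% in induced and 15.5% in uninduced cells. NDUFAF8 was the higher one, with 55.6% in induced and 52.9% in uninduced cells for Pol II and 79.0% in induced and 72.3% in uninduced cells for H3K27ac; with a −log10 q of at least 5 its Pol II difference was -9.80. NDUFAF5 had the lowest H3K27ac difference, with 13.4% in induced and 14.8% in uninduced cells. NDUFAF3 was wholly covered by both marks in both lists, but it overlaps DALRD3, so this coverage cannot be given to NDUFAF3 alone.

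Complex II, succinate dehydrogenase, also belongs to the tricarboxylic acid cycle, and all its subunits are nuclear. Its 4 genes were all lower in the induced list for both marks, by small amounts. SDHA, the flavoprotein, had 5.19% Pol II coverage in induced and 7.92% in uninduced cells, and 5.70% in induced and 5.98% in uninduced cells for H3K27ac. SDHB, the iron-sulfur subunit, had 1.06% in induced and 1.26% in uninduced cells for Pol II, and 3.5% in induced and 4.13% in uninduced cells for H3K27ac. SDHC, a membrane anchor, had 1.42% in induced and 1.76% in uninduced cells for Pol II, and 1.97% in induced and 2.03% in uninduced cells for H3K27ac. SDHD, the other anchor, had 4.40% in induced and 6.16% in uninduced cells for Pol II, and 8.92% in induced and 10.9% in uninduced cells for H3K27ac. The Pol II regions over SDHD, of 4828 bp in induced and 4882 bp in uninduced cells, also span TIMM8B, which lies 117 bp away. They cannot be given to SDHD alone. With the 20000 strongest regions the share lower for Pol II was 50%, and the SDHA difference was 0.87.

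Complex III carries electrons from ubiquinol to cytochrome c. Of its 8 covered genes, 4 were lower for Pol II and 4 higher, with medians of 12.6% in induced and 15.7% in uninduced cells; for H3K27ac 6 were lower and 2 higher. UQCR11, a small subunit, had 8.64% Pol II coverage in induced and 21.4% in uninduced cells, the start region being 4582 bp long at fold 35.2 in induced and 6371 bp at fold 19.0 in uninduced cells. UQCRQ, another small subunit, had 92.5% in induced and 100% in uninduced cells; its start lies 9 bp from that of GDF9 on the other strand. UQCRFS1, the Rieske iron-sulfur protein, had the highest difference, with 16.6% in induced and 13.97% in uninduced cells, but -0.40 with 1 kb added on both sides. UQCR10 had the lowest H3K27ac difference, with 51.4% in induced and 59.2% in uninduced cells.

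Complex IV, cytochrome c oxidase, has subunits with paralogs used in particular tissues. The widely expressed partners COX4I1, COX6A1, COX6B1, COX7A2, COX7B and COX8A were covered by both marks in both conditions, whereas COX4I2, COX6A2, COX7B2 and COX8C had no region in any list. COX4I1 had 11.9% Pol II coverage in induced and 12.0% in uninduced cells. COX6B1 had 7.05% in induced and 5.0% in uninduced cells, COX7A2 11.6% in induced and 22.5% in uninduced cells, COX7B 9.07% in induced and 15.2% in uninduced cells, and COX8A 35.1% in induced and 28.9% in uninduced cells. The difference of COX7B was -0.24 with a −log10 q of at least 5, and that of COX8A was -9.61 with 1 kb added on both sides. COX5B, which has no paralog among the members, had 45.7% H3K27ac coverage in induced and 51.2% in uninduced cells, the lowest difference of the complex. The pair outside the rule differed from this pattern: COXFA4 had 7.81% Pol II coverage in induced and 7.20% in uninduced cells, and COXFA4L2 79.9% in induced and 97.6% in uninduced cells.

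COX7A1, the heart and muscle form of subunit 7A, at chr19:36150922-36152447, had 0% Pol II coverage in induced cells and 75.1% in uninduced cells, with 0% for H3K27ac in both. The uninduced coverage came from 2 weak regions, chr19:36151120-36151738 at fold 3.26 and chr19:36151921-36153255 at fold 4.92, the second of which ran past the gene. In induced cells the nearest region, chr19:36153189-36153475 at fold 3.32, began outside the gene. CAPNS1 lies 569 bp away. With a −log10 q of at least 5 the difference was -34.5, and among the 20000 strongest regions it was 0, since neither region was in them. COX6B2, the testis form of subunit 6B, had 41.1% Pol II coverage in induced and 48.5% in uninduced cells from 1 region each, chr19:55350158-55352218 at fold 5.26 in induced and chr19:55350054-55352488 at fold 6.72 in uninduced cells, with no H3K27ac region in either.

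COX6A1, the widely expressed form of subunit 6A, had the highest difference of the members for both marks. It had 42.7% Pol II coverage in induced and 24.1% in uninduced cells, and 75.6% in induced and 57.4% in uninduced cells for H3K27ac. The added coverage was a Pol II region at chr12:120439613-120440204 with a fold of 3.03 and an H3K27ac region at chr12:120439800-120440231 with a fold of 4.02, both downstream of a start region found in both conditions. With a −log10 q of at least 5, the Pol II difference was -4.09, because the added region has a −log10 q of 2.48, and the H3K27ac difference was 1.68 among the 20000 strongest regions. Over the complex, 8 of 13 covered genes were lower for Pol II and 5 higher, with medians of 11.6% in induced and 22.5% in uninduced cells and a median gene-by-gene difference of -0.59, and for H3K27ac 4 of 11 were lower, 6 higher and 1 equal.

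Complex V makes ATP. Of its 18 covered genes, 9 were lower for Pol II, 8 higher and 1 equal; the median was 19.3% in induced and 11.7% in uninduced cells, while the median of the gene-by-gene differences was -0.09. ATP5MK, a small membrane subunit, had 21.7% Pol II coverage in induced and 7.15% in uninduced cells, and 17.2% in induced and 19.5% in uninduced cells for H3K27ac. Its added coverage came from weak regions of 489 and 443 bp, at folds of 3.08 and 3.21, and from a start region of 1442 bp in induced and 1134 bp in uninduced cells. With a −log10 q of at least 5 the difference was 2.01. ATP5ME, subunit e, had 27.5% in induced and 39.4% in uninduced cells. ATP5MF, subunit f, had 43.4% in induced and 49.6% in uninduced cells, but with lists of equal length the difference was 1.93.

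For H3K27ac, ATP5MG, subunit g, had 29.3% in induced and 43.1% in uninduced cells. The difference lay near its 3′ end, where a region was 478 bp long at fold 2.22 in induced cells and 1048 bp at fold 7.74 in uninduced cells, which also had one of 320 bp. Among the 20000 strongest regions the difference was -3.01. ATP5F1C, the gamma subunit of the central stalk, had 7.91% in induced and 19.9% in uninduced cells, with Pol II at 3.24% in induced and 2.33% in uninduced cells. ATP5F1E, the epsilon subunit, had 29.6% in induced and 18.0% in uninduced cells for H3K27ac, with Pol II at 16.8% in induced and 10.7% in uninduced cells; among the 20000 strongest regions its H3K27ac difference was 1.76. The added coverage included a region of 674 bp at fold 3.40. ATP5IF1, which inhibits the hydrolysis of ATP by the enzyme, was wholly under Pol II in both lists. ATP5MGL, a relative of ATP5MG, had no region. The readthrough genes repeat their neighbours: ATP5MF-PTCD1 had 27.3% Pol II coverage in induced and 33.9% in uninduced cells, and NDUFC2-KCTD14 5.75% in induced and 6.56% in uninduced cells.

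The position of the regions was examined in the 78 members for which the promoter table gives a strand. In the 1 kb around the start, Pol II was found at 70 members (89.7%) in induced and at 70 in uninduced cells, against 61.8% in induced and 62.7% in uninduced cells over 15812 genes. H3K27ac covered that whole kilobase at 64 members (82.1%) in each condition, against 47.8% in induced and 48.7% in uninduced cells. In this window Pol II coverage was the same in both lists at 37 of the 70 members, lower in the induced list at 25 and higher at 8. The lower share was 35.7%, beside 38.2% of all genes, of which 4918 of 9963 were the same. H3K27ac was the same at 62, lower at 5 and higher at 3. Its lower share was 7.14%, beside 14.9% of all genes, of which 7319 of 10036 were the same. Whole coverage limits these counts: Pol II covered the full kilobase at 40 of the 78 members in induced and at 44 in uninduced cells.

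In the 3 kb past the gene, among the 70 members with Pol II at the start in both lists, Pol II was found at 55 (78.6%) in induced and at 60 (85.7%) in uninduced cells, against 55.2% in induced and 59.7% in uninduced cells over 9725 genes with Pol II at the start. The median share of those 3 kb covered was 46.3% in induced and 68.9% in uninduced cells for members, and 11.8% in induced and 21.2% in uninduced cells for all genes. Of the 60 members covered there in either list, 48 were lower in the induced list, 8 higher and 4 equal. The lower share was 80.0% (Wilson 95% interval 68.2 to 88.2, counting error only), beside 69.0% of all genes, and the median difference was -12.3 percentage points, beside -6.07. The members had the higher lower share in each of 4 classes of gene length, the smallest gap being 81.8% beside 72.7% in genes over 20 kb; the median difference there was -4.03 beside -7.62. In each of those classes members also had the higher median in uninduced cells, such as 68.9% beside 43.25% from 10 to 20 kb. Members thus had more coverage to lose. Genes were not compared at equal starting coverage, and its part in the larger difference was not tested. With a 1 kb window in place of 3 kb the lower share was 66.7% beside 49.7%. With a 5 kb window the gap was smaller, at 82.0% (Wilson 95% interval 70.5 to 89.6) beside 75.9%. The median difference with 5 kb was -8.06 beside -6.12. Where no other protein-coding gene lay in the 3 kb, the lower share was 82.9% (34 of 41) beside 72.6%. These windows were chosen after the data were seen.

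**Figure D3:**
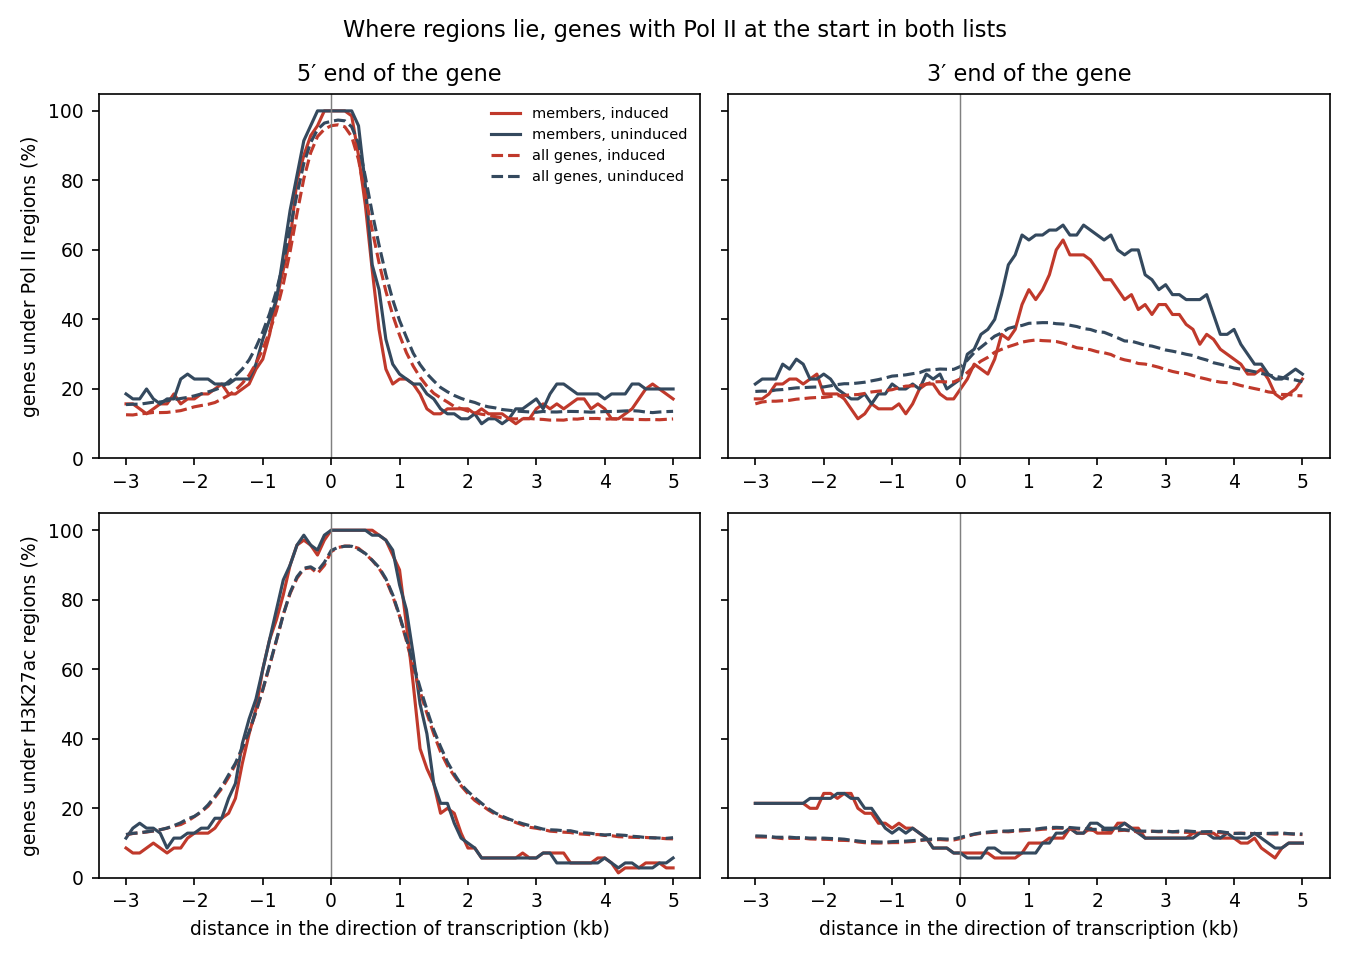
Percent of genes under Pol II regions (top) and H3K27ac regions (bottom) by distance in kb from the 5′ end (left) and the 3′ end (right), for 70 members (solid) and 9725 genes (dashed) with Pol II at the start in both lists, induced in red and uninduced in dark blue. At 1.5 kb past the 3′ end 62.9% of members were under Pol II in induced and 67.1% in uninduced cells, against 33.2% in induced and 38.7% in uninduced cells for all genes; at 800 bp it was 37.1% of members in induced and 58.6% in uninduced cells, against 32.8% in induced and 37.9% in uninduced cells for all genes.

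By complex, 18 of 24 covered genes of complex I were lower past the 3′ end, 3 of 3 of complex II, 5 of 7 of complex III, 7 of 7 of complex IV and 10 of 12 of complex V. So were 4 of 6 complex I assembly factors and 1 of 1 readthrough gene, beside 69.0% of all genes. The lowest differences, named after the values were seen, were at NDUFAF2, with 12.5% of the 3 kb covered in induced and 74.4% in uninduced cells, NDUFA3, with 33.8% in induced and 76.2% in uninduced cells, and SDHB, with 28.7% in induced and 70.0% in uninduced cells. The NDUFA3 window lies inside TFPT, another protein-coding gene, so its regions cannot be given to NDUFA3 alone. SDHD had 23.8% in induced and 58.0% in uninduced cells. COX6A1, whose gene coverage was higher in induced cells, had 43.8% in induced and 71.2% in uninduced cells past its end. Part of the uninduced coverage was a region of 4742 bp at fold 31.7 that ran on across TRIAP1. That part cannot be given to COX6A1 alone. The highest difference was at NDUFS1, a core subunit of complex I, with 64.6% in induced and 54.2% in uninduced cells. Among all 78 members with a strand, H3K27ac in the same 3 kb was found at 16 (20.5%) in induced and at 17 (21.8%) in uninduced cells. The shares of all 15812 genes were near these, at 21.1% in induced and 21.6% in uninduced cells.

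**Figure D4:**
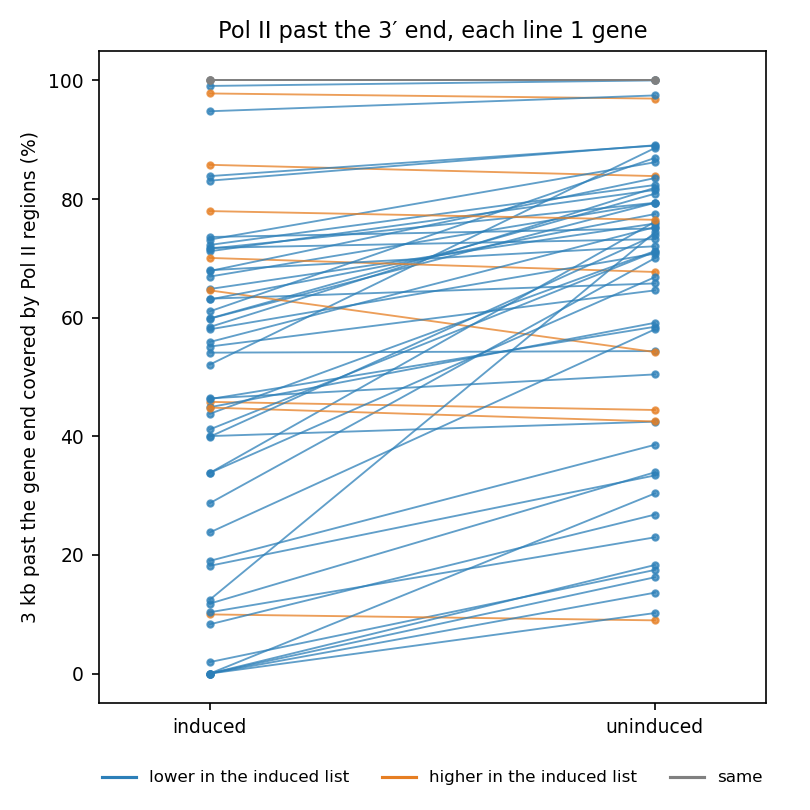
Percent of the 3 kb past the 3′ end under Pol II regions for the 60 members covered there in either list, induced on the left and uninduced on the right, 1 line per gene. Lower in the induced list are 48 genes, higher 8 and equal 4.

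Members lie close to other genes. Another protein-coding gene overlapped or lay within 1 kb of 54 of 96 members (56.3%), against 39.0% of all genes, and 27 of 78 (34.6%) had a start within 1 kb of a start on the other strand, against 13.7% of all. NDUFS6 begins 27 bp from MRPL36, a mitochondrial ribosomal protein gene, COX4I1 151 bp from EMC8, and ATP5PF 681 bp from GABPA, which encodes a subunit of the ETS factor GABP. Regions at such starts cannot be given to one gene. Among genes with no protein-coding neighbour within 1 kb, 65.8% of members were lower for Pol II, beside 76.8% of all such genes.

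Other gene families of mitochondria and growth were measured in the same way. Over all genes, 76.9% were lower and 20.5% higher for Pol II, and 55.2% lower and 42.6% higher for H3K27ac. Pol II coverage was lower in the induced list at 60 of 77 mitochondrial ribosomal protein genes and higher at 13, with medians of 13.1% in induced and 16.3% in uninduced cells. It was lower at 52 of 73 cytosolic ribosomal protein genes and higher at 12, with medians of 55.0% in induced and 61.0% in uninduced cells. Of 49 genes in a list of assembly factors outside the rule, which also holds CYC1, the cytochrome c1 subunit of complex III, and CYCS, cytochrome c, 35 were lower and 10 higher; of 20 glycolytic genes, 16 and 2; of 18 genes of the tricarboxylic acid cycle, 12 and 6; and of 16 covered regulators of mitochondrial genes, 13 and 3. For H3K27ac, 44 mitochondrial ribosomal protein genes were lower and 29 higher, and 43 cytosolic ones lower and 17 higher. Lower and higher were 19 and 27 genes of the assembly list, 10 and 9 glycolytic genes, 7 and 11 genes of the tricarboxylic acid cycle, and 6 and 10 regulators. The share lower for Pol II lay between 66.7% (tricarboxylic acid cycle) and 81.25% (regulators). For H3K27ac it lay between 37.5% (regulators) and 58.9% (cytosolic ribosomal proteins). No test of these counts against those of the members or of all genes was made.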

How the data were processed

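For each antibody and condition the authors deposited 1 peak list, named in the labels of both its samples; the sources used here do not say if their reads were merged first. The submitters' processing notes name, in no order and with no role, MACS2 2.1.1.20160309, deepTools 3.5.0, SAMtools 1.10 and BWA 0.7.17-r1188. Per summit, the deposited columns used are fold enrichment, which is a ratio, and −log10 q, whose lowest value is 1.30. The sources used here give no filters or caller settings. Region ends on chromosome 17 of up to 83228308 place the lists on GRCh38. Summit lists, RNA-seq and inputs were not used here.

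Rows of 1 region were collapsed, at most 0.603% of rows on other chromosomes were left out, and the percent of each RefSeq GRCh38.p14 gene under regions was counted (1-based; equal to bedtools 2.31.1 for every gene, and tested on simulated data). Python 3.11.15 with pandas 2.3.3, numpy 2.4.6, scipy 1.17.1 and matplotlib 3.10.9 was used. A gene was scored when covered in either list and called more than 25 points from the median of all scored genes. Weak regions near the q limit depend on depth, and no depth per list was used to rescale them. Strand came from the RefSeq promoter table, which held 78 of 96 members. With 1 list per group no test was run, and intervals of shares cover counting error only.

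Genes were named by rule: members past the threshold, in each group the 2 lowest and the highest Pol II difference and the lowest and highest H3K27ac difference, all complex II and readthrough genes, listed paralog pairs, members with no region and the 3 highest Pol II folds per list; genes named for the 10-point threshold, the windows past the 3′ end, their promoters or their neighbours were added after their values were seen. The members and lists were chosen with earlier results of these data known. Alternatives were other region thresholds, lists of equal length, the 20000 strongest regions, 1 kb flanks, genes of 2 kb or longer, genes with no neighbour and, added after seeing the data, regions joined across 1 kb and other settings past the 3′ end.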

Additional observations from a re-analysis of the deposited data

How the results depend on the processing

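No paired analysis was possible because each group has a single list for its 2 samples, and for the same reason no sample could be left out. The share of members with lower Pol II coverage was 77.8% with 1 kb added on both sides (80.8% of all genes); under the other alternatives it lay between 61.1% and 66.3%. The count called lower for Pol II, 1, was 2 with a −log10 q of at least 5 (COX7A1 and NDUFA3; 1.55% of all genes), 2 with regions joined across 1 kb (1.90% of all), and 0 with the 20000 strongest regions (1.49%), with genes of 2 kb or longer (0.816%) and with no neighbour within 1 kb (0.824%). With joined regions, 2 were higher for Pol II (0.325% of all). At 10 points the counts were 8 lower and 2 higher for Pol II, and 3 lower and 2 higher for H3K27ac. By complex, the share lower was 100% with no neighbour for the assembly factors (1 gene, both marks) and for complex III H3K27ac (4 genes). With 1 kb added, it was 100% for complex III and 84.6% for complex IV, both for Pol II. With the 20000 strongest regions it was 50% for complex II Pol II. Past the 3′ end the share was 66.7% with a 1 kb window (49.7% of all genes). Under the 5 other alternatives it was between 68.8% and 82.9% (between 58.5% and 75.9% of all genes). The causes were not tested, beyond the genes each setting leaves out. Readthrough genes all have neighbours and gave no value there. With 1 list per group, differences cannot be separated from variation between samples.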
